A study of Mus musculus with 16 samples.

Results

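Transcript levels of 45 genes that act in mitosis were followed in sorted colon epithelium of 16 mice, across dextran sulfate sodium (DSS) injury and epithelial deletion of TNFR2, the tumor necrosis factor receptor encoded by Tnfrsf1b. The genes were taken by symbol from a fixed list, and all 45 were found among the 22396 gene symbols of the deposited tables. All mice carried loxP-flanked Tnfr2 alleles (Tnfr2-f/f), and those labelled knockout carried Vil1::Cre in addition, a Cre recombinase driven by the villin promoter, which is active in intestinal epithelium. There were 4 controls and 5 mice labelled knockout given water, and 3 controls and 4 mice labelled knockout given DSS, a polymer in the drinking water that erodes the colonic epithelium. DSS at 3% by the labels, or water, was given for 6 days to adult mice, and the labels put dissection at day 12. The study's text gives a higher DSS dose, and an earlier day for uninjured mice, which was not resolved here. Cells of the distal mucosa positive for EpCAM, an epithelial surface protein, were sorted from each mouse, from regions picked as injured under a stereomicroscope in the DSS colons. All 7 DSS mice were female. The water mice were 4 males in cage a and 5 females in cage b, so cage and sex were the same split there, and treatment and cage cannot be told apart.

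The values are TPM, a transcript's share of all transcripts in a library after allowing for its length, summed over the listed principal transcripts of each gene, and the water and DSS tables were scaled separately. Every test below stays within a table. Levels were set across the tables in 2 ways, by the percentile rank of a gene within its own library and by TPM after a single median-of-ratios rescaling of all 16 libraries, whose factors were 0.905 to 0.94 in water and 1.13 to 1.24 after DSS. Estimated counts are given by the authors only as a mean of natural logs per transcript. Their geometric mean over the DSS mice ran from 14.97 to 3299 over the 45 genes with a median of 189, and over the water mice from 10.3 to 555 with a median of 55.5, without a value for 3 genes, so the water values of these genes rest on fewer reads. The targeted gene, Tnfrsf1b, was listed at 11.1 to 15.5 TPM in the water controls and 9.23 to 14.8 in the water mice labelled knockout, and at 13.3 to 22.2 TPM in the DSS controls and 13.5 to 27.03 in those labelled knockout. It was not called in either table, at limma adjusted p = 0.865 in water and 0.9997 after DSS. The deletion removes an exon, which a sum over the whole transcript need not show, and the mice are called labelled knockout here. RNA of other cells was present: leukocyte markers summed to 1889 to 16675 rescaled TPM in water and to 107 to 967 after DSS. Single genes led these sums. In water it was Jchain, with means of 4463 in controls and 8489 in mice labelled knockout. After DSS it was S100a8, at 309 and 140, which rose against the fall of the sums, from 2.21 and 2.94 in water.

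Mitosis is run by cyclin-dependent kinase 1 bound to A- and B-type cyclins. Aurora, Polo-like and NEK kinases then separate centrosomes and build the spindle, kinetochore proteins join chromosomes to microtubules, and a checkpoint holds the anaphase-promoting complex until all chromosomes are attached. In the colon such divisions take place in the lower crypt, where transit-amplifying cells replace the surface colonocytes that are shed, and crypts near a wound divide to cover it. The transcripts of these genes peak together in G2 and M phase. Their promoters are known for a cell cycle genes homology region (CHR), bound by the MuvB complex with its partners B-MYB and FOXM1, and for CCAAT boxes, bound by NF-Y.

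These promoter letters were counted in RefSeq windows of 300 bases, 250 before and 50 after a gene's start (GRCm38.p6), taken within 500 bases of the start of the gene's leading listed transcript. A window was matched for 38 of the 45 genes. The CHR was searched as TTTGAA or TTCGAA and the box as CCAAT, each on both strands, with overlapping matches such as CCAATTGG counted as 2. A CHR was found in 28 of the 38 promoters (73.7%), against 13.9% of the 8246 matched promoters of all genes averaging 1 TPM or more. At least 1 CCAAT was found in 30 (78.9%, against 38.6%), at least 2 in 22 (57.9%, against 15.2%), and both a CCAAT and a CHR in 25 (65.8%, against 5.85%). The promoters of 4 genes are printed to show these letters, chosen after the values were seen: Mki67 and Ccnb2, whose ranks did not overlap between DSS and water in either genotype, and Cdk1 and Ube2c, whose ranks overlapped in both. Each runs 5′ to 3′ on the gene's strand from 250 bases before the start through the first 30 bases from it, and capitals mark the matches on either strand. They lie at chr7:135716350-135716629 (minus strand) for Mki67, chr9:70421525-70421804 (minus) for Ccnb2, chr10:69352883-69353162 (minus) for Cdk1 and chr2:164769679-164769958 (plus) for Ube2c.
Mki67: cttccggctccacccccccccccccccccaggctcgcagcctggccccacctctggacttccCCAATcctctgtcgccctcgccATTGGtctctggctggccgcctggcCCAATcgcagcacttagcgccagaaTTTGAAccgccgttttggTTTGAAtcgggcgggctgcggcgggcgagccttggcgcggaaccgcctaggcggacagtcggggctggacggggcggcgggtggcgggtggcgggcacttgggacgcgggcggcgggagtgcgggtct
Ccnb2: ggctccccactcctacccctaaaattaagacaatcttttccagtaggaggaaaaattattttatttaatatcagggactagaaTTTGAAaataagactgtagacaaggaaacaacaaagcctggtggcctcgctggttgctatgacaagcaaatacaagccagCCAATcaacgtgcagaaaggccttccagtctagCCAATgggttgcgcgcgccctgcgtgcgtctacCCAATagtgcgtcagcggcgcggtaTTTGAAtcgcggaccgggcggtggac
Cdk1: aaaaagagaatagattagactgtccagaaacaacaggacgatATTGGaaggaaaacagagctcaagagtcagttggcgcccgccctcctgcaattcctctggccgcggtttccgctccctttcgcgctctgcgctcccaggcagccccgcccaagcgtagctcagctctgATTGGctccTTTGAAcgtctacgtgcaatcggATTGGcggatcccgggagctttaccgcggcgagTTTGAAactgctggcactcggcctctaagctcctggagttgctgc
Ube2c: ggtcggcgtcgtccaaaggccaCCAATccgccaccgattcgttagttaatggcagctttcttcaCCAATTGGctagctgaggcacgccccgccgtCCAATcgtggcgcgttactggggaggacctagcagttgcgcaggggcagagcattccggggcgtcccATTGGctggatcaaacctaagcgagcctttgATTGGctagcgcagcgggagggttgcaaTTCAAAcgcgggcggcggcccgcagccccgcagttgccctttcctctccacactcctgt
The printed stretches of Mki67, Ccnb2 and Cdk1 each hold 3 CCAAT and 2 CHR matches, and that of Ube2c holds 6 CCAAT and 1 CHR. The 28 genes with a CHR had a median DSS minus water difference of 0.36 on the log2 scale in controls and 0.54 in mice labelled knockout, and the 10 without one had 0.54 and 0.40. A match is a description of the letters and not a binding site.

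By mean TPM as deposited over the 16 mice of both tables, the highest of the 45 were Cks2 (82.6 TPM), a small subunit of cyclin-dependent kinases, Birc5 (40.3 TPM), the survivin subunit of the chromosomal passenger complex, and Ube2c (39.6 TPM), the ubiquitin-conjugating enzyme of the anaphase-promoting complex. The lowest were Ect2 (0.54 TPM), an exchange factor for the GTPase RhoA in cytokinesis, Kif20b (1.22 TPM), a kinesin of the midbody, and Aurka (2.02 TPM), the centrosomal Aurora kinase. TPM is a level per transcript length, so these genes may be ordered on it, but 12 of the 45, Ect2, Kif20b and Aurka among them, have under 10% of their 31-base windows free of overlap with unlisted isoforms of the same gene, and their listed level depends on how reads were shared among isoforms. The order differed between groups: Cks2 was the highest in all 4, but Mki67 (53.7 TPM) and Ccnb2 (44.6 TPM) were above Ube2c (43.8 TPM) in the DSS controls, and Ube2c (30.5 TPM) was above Birc5 (26.3 TPM) in the water controls. All but Ect2 of the 45 averaged 1 TPM or more over the 16 mice. The mean percentile of the 45 genes among the 18010 genes detected was 60.3 to 67.9 in the 4 water controls, 64.3 to 71.2 in the 5 water mice labelled knockout, 71.2 to 76.7 in the 3 DSS controls and 72.6 to 77.0 in the 4 DSS mice labelled knockout. By this percentile every DSS library was above every water library, by little between DSS control 3 and water knockout 3, which both round to 71.2. By mean log2(rescaled TPM + 1) the treatments overlapped. Water knockout 3 (3.47) lay above DSS control 3 (3.32), DSS control 1 (3.42) and DSS knockout 2 (3.45). Water control 3 was the lowest of the 16, and water knockout 3 the highest of the 9 water mice.

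Which mitosis genes were higher in injured than in uninjured epithelium was read in each genotype. In controls, 39 of the 45 had a higher mean log2(rescaled TPM + 1) after DSS. The median log2 difference was 0.46 against 0.02 for the 11247 genes that averaged 1 TPM or more. By rank, all DSS controls were above all water controls for 19 of the 45 (42.2%), and none was lower without overlap, where 19.1% of all genes were higher and 10.6% lower without overlap. In mice labelled knockout, 38 of the 45 had a higher mean log2(rescaled TPM + 1), with a median difference of 0.48 against 0.003 for all genes. By rank 17 of the 45 (37.8%) were higher without overlap and none lower, against 25.5% higher and 13.4% lower for all genes. By rescaled TPM, 9 were higher and 1 (Gtse1) lower without overlap in controls (all genes 10.7% and 13.9%). In mice labelled knockout 14 were higher and none lower (17.4% and 17.8%). The 2 readings are centred differently. The ranks of all genes were shifted upward after DSS, by a median of 1.38 percentiles in controls and 1.39 in mice labelled knockout. The tables were scaled separately, so no test was run across them. In bulk RNA, more dividing cells and more of these transcripts per cell cannot be told apart.

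Ranks were higher after DSS without overlap in both genotypes for 13 genes: Mki67, Ccna2, Ccnb2, Birc5, Cenpe, Cenpf, Hmmr, Kif4, Nek2, Tpx2, Ttk, Cks2 and G2e3, as was so for 12.9% of all genes. For 6 of the 45, Mki67, Birc5, Cenpe, Cenpf, Nek2 and G2e3, all 7 DSS libraries ranked above all 9 water libraries. That share is near the 10.1% of all genes. A further 22 of the 45 overlapped in both genotypes, Cdk1, Aurkb, Plk1, Cdc20, Ube2c, Cdca8 and Tacc3 among them. This share, too, is near the 51% of all genes. Log2 differences by rescaled TPM varied within the list. They were over 0.8 in both genotypes for Mki67, Ccna2, Cenpe, Cenpf, Hmmr, G2e3, Aurka and Kif20b. They were under 0.1 in both for Cdk1, Plk1, Aurkb, Gtse1, Nusap1, Smc4 and Hjurp. Several of the higher ones have long transcripts, and values adjusted for length are given below. The negative differences depended on the scale. By TPM as deposited, where all genes were shifted by 0.32 and 0.31, all 45 were higher in mean in controls and 43 in mice labelled knockout, and each member with a negative difference by rescaled TPM was positive under at least 1 other scaling.

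**Figure D1:**
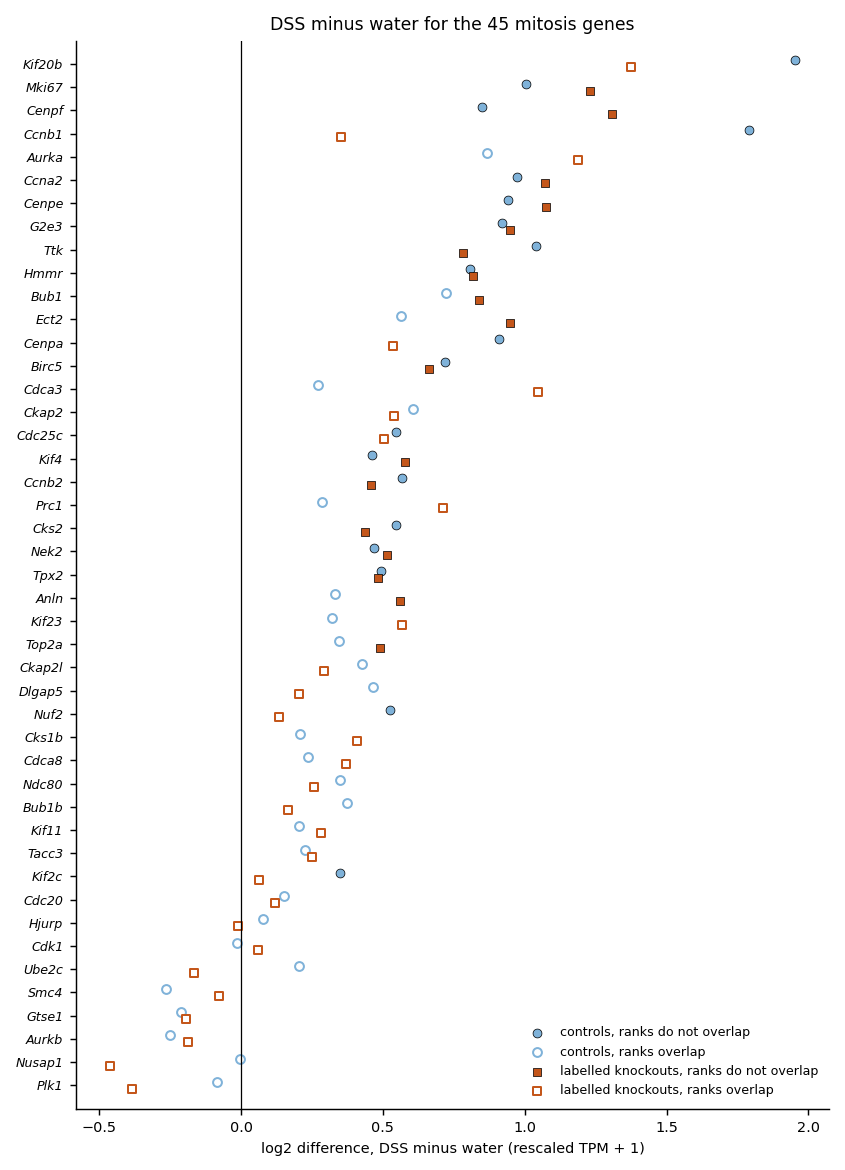
Log2 difference of the mean log2(rescaled TPM + 1), DSS minus water (horizontal axis), for each of the 45 mitosis genes (vertical axis, ordered by the mean of both genotypes), in controls (circles) and in mice labelled knockout (squares). Filled symbols mark genes whose within-library ranks did not overlap between DSS and water, 19 in controls and 17 in mice labelled knockout, and most of the others also lie to the right of 0.

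In the role groups and lists below, higher or lower without overlap refers to ranks, and the rescaled TPM printed beside it may overlap. In the cyclin and CDK core, 6 of 9 genes were higher without overlap in controls and 4 of 9 in mice labelled knockout. The shares over all genes were 19.1% and 25.5%. Cdk1 (ENSMUSG00000019942, chr10:69335146-69352938), the mitotic kinase itself, was at 25.8, 32.3, 22.7 and 20.4 rescaled TPM in the water controls and 22.6, 30.7 and 21.6 in the DSS controls. It was at 24.2, 28.98, 35.1, 17.03 and 25.8 rescaled TPM in the water mice labelled knockout and 27.6, 23.2, 23.3 and 33.7 in those given DSS. The groups overlapped throughout, and the log2 differences were -0.01 and 0.06. Its mitotic partner Ccnb1, cyclin B1 (ENSMUSG00000041431, chr13:100778650-100786570), was at 8.98, 6.96, 2.59 and 0 rescaled TPM in the water controls and 13.7, 18.1 and 9.27 in the DSS controls, a log2 difference of 1.79. In mice labelled knockout it was at 8.20, 9.16, 12.7, 10.7 and 10.3 in water and 12.4, 10.8, 14.2 and 15.9 after DSS, a log2 difference of 0.35 with overlap. The water controls were lower in mean than the water mice labelled knockout, with water control 4 listed at 0, and only 6.75% of this transcript's windows are its own. Ccna2, cyclin A2, which acts from S phase to early mitosis, went from 16.02 ± 3.58 (SD, n = 4) to 33.6 ± 12.8 rescaled TPM (n = 3) in controls and from 17.6 ± 3.41 (n = 5) to 37.8 ± 4.38 (n = 4) in mice labelled knockout. Cdc25c, the phosphatase that activates CDK1, and G2e3, a ubiquitin ligase named for its G2/M expression, had log2 differences of 0.55 and 0.92 in controls and 0.50 and 0.95 in mice labelled knockout. Cks2 differed by 0.55 on the log2 scale in controls and 0.44 in mice labelled knockout. Cks2 was at 78.9, 60.8, 41.7 and 70.3 rescaled TPM in the water controls and 99.2, 104 and 70.4 in the DSS controls. It was at 65.1, 60.1, 87.1, 78.3 and 59.9 in the water mice labelled knockout and 94.1, 89.4, 98.8 and 94.9 after DSS. It was higher without overlap of ranks in both genotypes. Cdca3, a trigger of mitotic entry, was 0.27 in controls and 1.04 in mice labelled knockout, with overlap in both.

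Of the 3 mitotic kinases, Nek2, which splits the centrosomes, was the 1 higher without overlap in each genotype (all genes 19.1% and 25.5%), by 0.47 and 0.51. Plk1, Polo-like kinase 1 (ENSMUSG00000030867, chr7:122159439-122169873), was at 26.3, 26.9, 22.2 and 26.97 rescaled TPM in the water controls and 16.02, 22.9 and 37.4 in the DSS controls. It was at 31.7, 27.8, 31.99, 18.5 and 30.5 in the water mice labelled knockout and 22.4, 20.6, 17.9 and 23.1 after DSS. DSS control 3 was the highest of the 16, while the other 6 DSS mice lay at or below the median of the water mice, and the log2 differences were -0.09 and -0.38. Aurka was at 1.47, 0, 0 and 0 rescaled TPM in the water controls and 0, 4.69 and 1.1 in the DSS controls. It was at 0, 0, 4.35, 0 and 3.71 in the water mice labelled knockout and 3.68, 4.15, 4.62 and 1.63 after DSS. It was thus listed at 0 in 6 of the 9 water mice and in DSS control 1. None of its windows is its own, and the part of its unlisted isoforms in these zeros was not tested.

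In the checkpoint and the anaphase-promoting complex, 1 of 5 genes was higher without overlap of ranks in controls (Ttk). In mice labelled knockout it was 2 of 5 (Ttk and Bub1), beside 19.1% and 25.5% of all genes. Bub1, a checkpoint kinase at kinetochores (ENSMUSG00000027379, chr2:127801122-127831865), was at 4.39, 5.96, 3.19 and 4.92 rescaled TPM in the water controls and 9.78, 12.6 and 4.14 in the DSS controls. It was at 2.75, 5.1, 6.44, 4.36 and 4.82 in the water mice labelled knockout and 7.67, 7.81, 11.1 and 9.49 after DSS. DSS control 3 was the only DSS library inside the water range, and the log2 differences were 0.72 and 0.84. Ube2c (ENSMUSG00000001403, chr2:164769898-164778822) was at 42.98, 39.1, 21.3 and 29.1 rescaled TPM in the water controls and 38.8, 32.1 and 40.6 in the DSS controls. It was at 33.8, 53.4, 54.6, 35.4 and 40.5 in the water mice labelled knockout and 34.2, 37.6, 38.7 and 41.3 after DSS. All 7 DSS values fell inside the water range, with log2 differences of 0.20 and -0.17. Cdc20, the activator of the complex at anaphase, had differences of 0.15 and 0.12, and Ttk, the kinase that starts checkpoint signalling, 1.04 and 0.78. Ttk was at 3.34, 3.3, 1.92 and 0 rescaled TPM in the water controls and 4.84, 6.45 and 3.01 in the DSS controls. It was at 3.33, 3.75, 4.09, 0 and 4.45 in the water mice labelled knockout and 4.58, 4.3, 4.86 and 7.12 after DSS. By rescaled TPM the Ttk values thus overlapped between DSS and water in both genotypes. The zeros stood in water control 4 and water knockout 4, and the transcript has no window of its own.

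In the chromosomal passenger complex, Birc5 was the 1 of 3 genes higher without overlap by rank in each genotype (all genes 19.1% and 25.5%), 1.55-fold and 1.57-fold. Birc5 was at 33.9, 42.8, 14.1 and 23.3 rescaled TPM in the water controls and 43.01, 51.4 and 38.7 in the DSS controls. It was at 31.2, 30.1, 43.5, 32.2 and 22.5 in the water mice labelled knockout and 52.3, 46.5, 51.9 and 49.2 after DSS. Aurkb, the kinase of the same complex (ENSMUSG00000020897, chr11:69045647-69051664), was at 11.8, 13.9, 8.13 and 7.12 rescaled TPM in the water controls and 7.58, 8.20 and 8.75 in the DSS controls. It was at 8.66, 10.7, 18.7, 8.66 and 7.94 in the water mice labelled knockout and 9.25, 7.34, 8.26 and 11.7 after DSS. The log2 differences of Aurkb were -0.25 and -0.19, but 0.07 and 0.14 by TPM as deposited, so its direction depended on the scale.

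In the centromere and kinetochore group, 4 of 6 genes were higher without overlap in controls and 2 of 6 in mice labelled knockout, beside 19.1% and 25.5% of all genes. Cenpf, a large kinetochore protein of G2 and M, was at 2.24, 2.72, 1.99 and 3.90 rescaled TPM in the water controls and 5.29, 6.55 and 4.96 in the DSS controls. It was at 1.96, 2.69, 1.81, 1.87 and 2.45 in the water mice labelled knockout and 5.59, 5.75, 8.07 and 8.05 after DSS. All 7 DSS mice were above all 9 water mice, 2.07-fold in controls and 3.18-fold in mice labelled knockout. Cenpe, the kinetochore kinesin, was 2.15-fold and 2.34-fold higher. Cenpa, the centromeric histone H3 (ENSMUSG00000029177, chr5:30666777-30674830), was at 8.73, 7.995, 3.39 and 8.02 rescaled TPM in the water controls and 12.6, 15.7 and 12.2 in the DSS controls. It was at 7.93, 13.3, 11.4, 5.29 and 9.25 in the water mice labelled knockout and 15.8, 10.8, 12.9 and 15.3 after DSS, overlapping there, with log2 differences of 0.91 and 0.53. For Hjurp, the chaperone that loads CENP-A, the groups overlapped throughout and the log2 differences were 0.08 and -0.01. Hjurp was at 28.01, 32.7, 35.4 and 29.8 rescaled TPM in the water controls and 27.6, 34.8 and 37.8 in the DSS controls. It was at 35.7, 27.6, 26.9, 28.9 and 26.5 in the water mice labelled knockout and 25.2, 30.2, 25.1 and 35.6 after DSS.

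Among the kinesin motors, 3 of 5 were higher without overlap in controls and 1 of 5, Kif4, in mice labelled knockout, beside 19.1% and 25.5% of all genes. Kif11, the motor that pushes spindle poles apart (ENSMUSG00000012443, chr19:37376403-37421859), was at 5.05, 5.98, 2.78 and 4.67 rescaled TPM in the water controls and 6.08, 7.47 and 3.21 in the DSS controls. It was at 3.78, 5.06, 5.87, 3.92 and 4.80 in the water mice labelled knockout and 4.89, 5.25, 6.34 and 7.15 after DSS. The groups overlapped in both genotypes, at log2 differences of 0.20 and 0.28. Kif20b was listed at 0 in all 9 water mice. It was at 2.58, 4.41 and 1.999 rescaled TPM in the DSS controls and 2.78, 0, 2.24 and 2.67 in the DSS mice labelled knockout. Its log2 differences of 1.95 and 1.37 were the largest of the list, and no fold is given against mice listed at 0. Only 3.16% of its windows are its own.

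In the spindle assembly group, 2 of 9 genes were higher without overlap in each genotype, a share near the 19.1% and 25.5% of all genes, namely Hmmr and Tpx2, which organise microtubules at the poles. Hmmr differed by 0.81 and 0.82 and Tpx2 by 0.49 and 0.48. Nusap1, a microtubule bundler, was the lowest member in mice labelled knockout, with a log2 difference of -0.46 against -0.01 in controls. Nusap1 was at 9.16, 9.61, 5.19 and 5.91 rescaled TPM in the water controls and 7.76, 10.1 and 4.69 in the DSS controls. It was at 7.89, 12.9, 9.94, 8.66 and 7.98 in the water mice labelled knockout and 4.71, 5.71, 7.71 and 8.47 after DSS. Gtse1, which stabilises microtubules and restrains p53 in G2, had log2 differences of -0.21 and -0.19. Gtse1 was at 4.08, 4.92, 3.68 and 3.65 rescaled TPM in the water controls and 3.43, 3.08 and 3.61 in the DSS controls. It was at 5.04, 4.87, 4.29, 4.08 and 2.07 in the water mice labelled knockout and 3.7, 2.07, 3.12 and 4.82 after DSS. Prc1, the crosslinker of the central spindle, had differences of 0.28 and 0.71, with overlap in both genotypes. In controls its mean rescaled TPM was 2.85 after DSS and 2.95 in water, so the sign depended on averaging logs. Prc1 was at 4.44, 1.6, 0 and 5.78 rescaled TPM in the water controls and 3.26, 3.12 and 2.15 in the DSS controls. It was at 2.09, 2.88, 3.7, 0.105 and 3.35 in the water mice labelled knockout and 5.87, 3.69, 4.7 and 2.45 after DSS. Water control 3 was listed at 0, and 0.03% of the transcript's windows are its own. For cytokinesis, Anln, a scaffold of the contractile ring, and Ect2 were both higher without overlap of ranks in mice labelled knockout. Their log2 differences there were 0.56 and 0.95, and both overlapped in controls. By rescaled TPM, Ect2 overlapped in mice labelled knockout too. Ect2 was listed at 0 in all water mice but water knockout 5, at 0.65 rescaled TPM. After DSS it was at 0, 1.12 and 0.515 in controls and 0.785, 0.627, 2.97 and 0.792 in mice labelled knockout, highest in knockout 3.

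Of the genes of mitotic chromosome structure, Mki67 (ENSMUSG00000031004, chr7:135689784-135716361), which encodes the proliferation antigen Ki-67 that coats mitotic chromosomes, was at 17.9, 24.1, 17.9 and 29.4 rescaled TPM in the water controls and 42.6, 60.9 and 34.7 in the DSS controls. It was at 18.8, 19.3, 18.9, 23.96 and 21.96 in the water mice labelled knockout and 46.1, 44.01, 49.3 and 59.9 after DSS. All 7 DSS mice lay above all 9 water mice, 2.06-fold in controls and 2.42-fold in mice labelled knockout. Top2a, the topoisomerase that untangles sister chromatids (ENSMUSG00000020914, chr11:98992943-99024189), was at 21.1, 27.6, 13.4 and 24.5 in the water controls and 29.3, 35.3 and 18.7 rescaled TPM in the DSS controls. It was at 16.003, 25.4, 24.2, 20.6 and 20.2 in the water mice labelled knockout and 25.02, 26.6, 31.4 and 38.2 after DSS. DSS control 3 lay among the water mice, and the differences were 0.34 and 0.49, with no overlap of ranks in mice labelled knockout. Smc4, a condensin subunit, had log2 differences of -0.27 and -0.08, and the groups overlapped. Smc4 was at 7.87, 6.26, 1.28 and 8.92 rescaled TPM in the water controls and 4.15, 1.48 and 9.63 in the DSS controls. It was at 7.2, 7.34, 3.1, 4.77 and 2.68 in the water mice labelled knockout and 4.07, 2.84, 6.16 and 5.05 after DSS. The members not described here by value, Ccnb2, Cks1b, Bub1b, Cdca8, Nuf2, Ndc80, Kif23, Kif2c, Kif4, Ckap2, Ckap2l, Tacc3 and Dlgap5, had log2 differences from 0.21 (Cks1b) to 0.61 (Ckap2) in controls and from 0.06 (Kif2c) to 0.58 (Kif4) in mice labelled knockout.

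**Figure D2:**
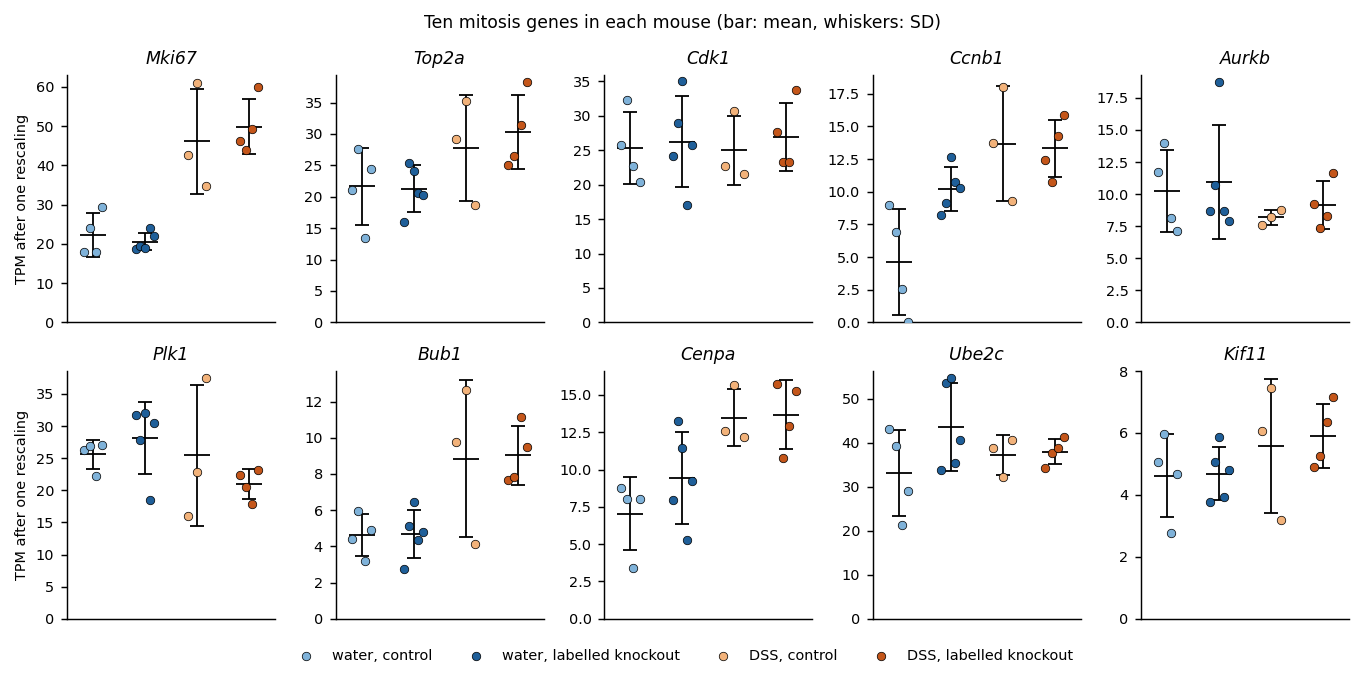
Rescaled TPM (vertical axes, from 0) of 10 mitosis genes in each of the 16 mice, in 4 groups, with horizontal bars for group means and whiskers for 1 SD. Mki67 alone of the 10 separates all DSS from all water mice. The other genes drawn overlap over the 16 mice, and Ccnb1 is lowest in mean in the water controls.

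Values that moved with the DSS difference are given beside it. Over all genes, longer transcripts were relatively higher after DSS: from the shortest to the longest eighth of transcript lengths the median log2 difference ran from -0.19 to 0.27 in controls and from -0.39 to 0.41 in mice labelled knockout. The 5 members in the longest eighth (5555 bases or longer), Mki67, Cenpe, Cenpf, Kif20b and G2e3, had medians of 0.94 and 1.23. After subtracting the median of genes of like length, the median of the 45 was 0.39 in controls and 0.46 in mice labelled knockout. Without this adjustment the medians were 0.46 and 0.48. In controls Mki67 went from 1.01 to 0.65, Cenpe from 0.94 to 0.59 and Cenpf from 0.85 to 0.50. In mice labelled knockout the same genes went from 1.23 to 0.68, 1.07 to 0.52 and 1.31 to 0.76. The adjustment was chosen after the data were seen, and the part of length in the DSS differences was not tested.

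**Figure D3:**
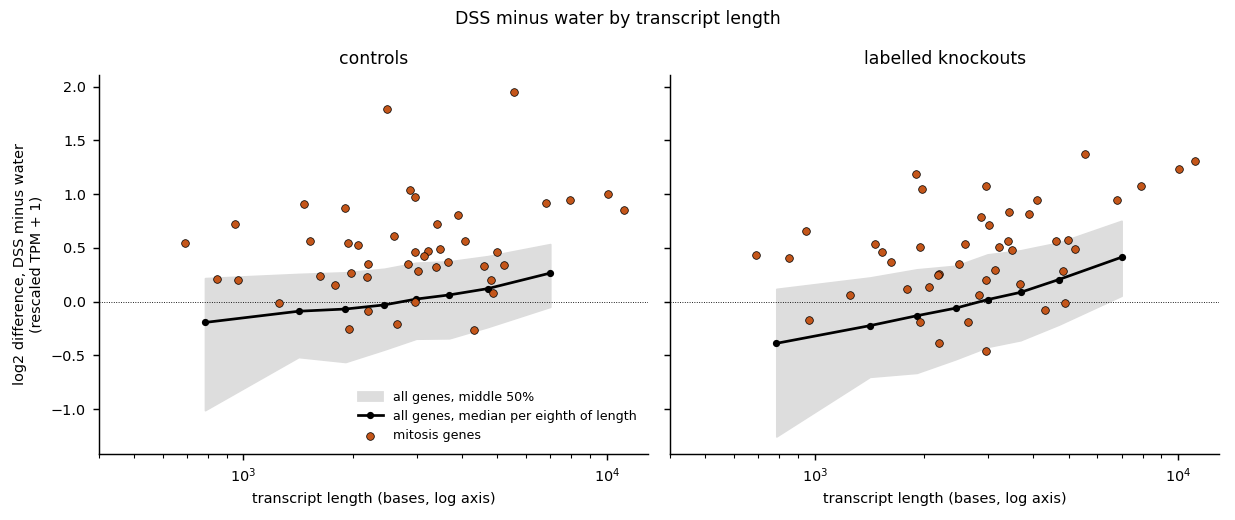
Log2 difference, DSS minus water (vertical axis), against transcript length in bases (horizontal log axis) in controls and in mice labelled knockout. The black line and grey band give the median and middle 50% of all genes in each eighth of length, which climb to the right, and the orange points, the 45 mitosis genes, lie mostly above the line at every length.

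Leukocyte, plasma cell and stromal markers were lower after DSS in median. Of 20 leukocyte markers averaging 1 TPM or more, 15 in controls and 16 in mice labelled knockout were lower after DSS without overlap. In each genotype 1 was higher. Of all genes, 10.6% and 13.4% were lower and 19.1% and 25.5% higher without overlap. Plasma cell markers had medians of -2.84 and -2.82 and fibroblast, muscle and endothelial markers of -1.09 and -0.57. Markers of germinal centre B cells, a dividing cell type of colonic lymphoid follicles, summed to only 14.4 to 35.1 rescaled TPM in all 16 mice. Among epithelial genes, surface colonocyte markers had medians of -0.90 and -0.96 and crypt progenitor markers of 0.42 and 0.21. Adjusted for length, the progenitor medians were 0.31 and 0.11, and that list was mixed. Slc12a2 went from 58.4 to 129 rescaled TPM in controls and from 58.2 to 143 in mice labelled knockout. The stem-cell marker Ascl2 went from 6.33 to 3.19 and from 5.87 to 3.40, and Axin2 was lower in mean in both genotypes too. Epithelial markers as a whole had medians of -0.15 and -0.29 by rescaled TPM, but ranks went the other way. Of the 15, 4 in controls and 6 in mice labelled knockout were higher without overlap and 0 lower. Their mean percentile went from 96.3 to 97.5 in controls and from 96.5 to 97.6 in mice labelled knockout. The part of these differences in the mitosis values was not tested. Relative to the geometric mean of the epithelial markers in each library, the median of the 45 was 0.54 in controls and 0.63 in mice labelled knockout (all genes 0.10 and 0.14), and with female water mice alone it was 0.29 and 0.46 (all genes 0.01 and -0.0007).

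Other genes of the cycle were read from lists of the same kind. Of 93 other mitosis genes, 90 averaged 1 TPM or more, and 17 were higher without overlap in controls and 37 in mice labelled knockout, with 0 and 2 lower and medians of 0.31 and 0.39. Of 54 S phase genes, 53 were counted, with 9 and 24 higher, none lower and medians of 0.33 and 0.53. Of 12 CDK inhibitors and quiescence genes, 11 were counted, with 1 and 2 higher, 2 and 4 lower and medians of -0.34 and -0.16. Of all genes, 19.1% in controls and 25.5% in mice labelled knockout were higher without overlap, and 10.6% and 13.4% were lower. In controls, the shares of other mitosis and S phase genes higher without overlap were not above that of all genes. In mice labelled knockout they were above it.

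**Figure D4:**
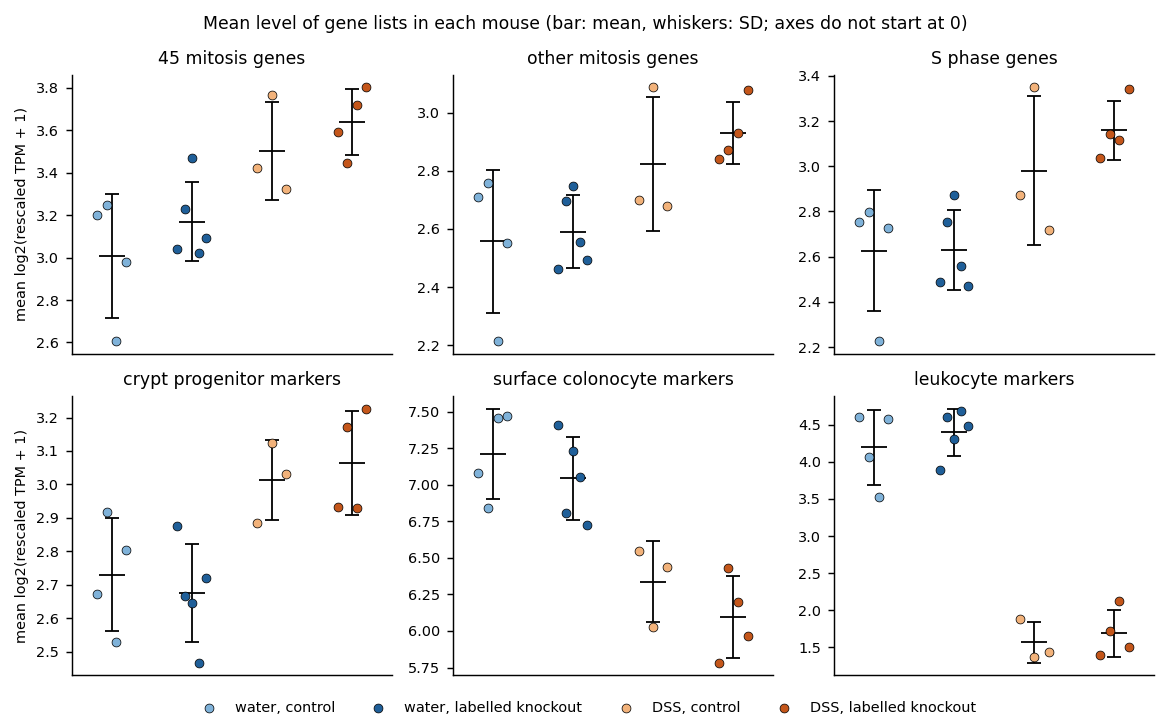
Mean log2(rescaled TPM + 1) over the genes of each list (vertical axes, which do not start at 0) in each of the 16 mice, with horizontal bars for group means and whiskers for 1 SD. The 45 mitosis genes, the other mitosis genes, S phase genes and crypt progenitor markers are higher in mean after DSS, and surface colonocyte and leukocyte markers are lower.

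Whether deletion of TNFR2 altered these genes was compared within each table. After DSS, none of the 45 passed limma's test at adjusted p under 0.05, where 1 of 10899 genes did (0.00918%). At unadjusted p under 0.05 there was 1 of 45, against 2.65% of all genes, namely Cks1b, which binds cyclin-dependent kinases. The median log2 difference, knockout minus control, was 0.15 against 0.02 for all genes, and 39 of the 45 had a positive difference. The genes vary together between mice, so the number of positive signs is not a count of independent differences. Without DSS control 3 the median was 0.06, with 27 of 45 positive, and without DSS control 2 it was 0.28. Within cage d it was 0.08 (2 controls, 3 labelled knockout) and within cage c 0.25 (1 of each).

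Cks1b was at 16.7, 25.7 and 12.1 TPM as deposited in the DSS controls and 29.6, 21.9, 24.7 and 30.9 in those labelled knockout, a log2 difference of 0.58 ± 0.25 (SE) with overlap at 1 control and limma adjusted p = 0.9997. By an exact two-sided permutation of the 7 mice, which cannot give less than 0.0286, p was 0.143. The larger positive differences were those of Aurka (1.01 ± 0.60), Ect2 (0.59 ± 0.45) and Cdca3 (0.59 ± 0.25), and the most negative those of Kif20b (-0.62 ± 0.54), Hjurp (-0.19 ± 0.18) and Plk1 (-0.18 ± 0.28). Cdca3 was at 9.95, 17.1 and 19.1 TPM in the controls and 27.6, 18.01, 19.9 and 27.2 in those labelled knockout, overlapping at the highest control. For Aurka, Ect2 and Kif20b the spread included mice listed at 0.

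For the members below, the differences after DSS were within their standard error. Mki67 was at 49.1, 69.0 and 43.0 TPM as deposited in the DSS controls and 54.9, 52.5, 58.1 and 70.2 in those labelled knockout, 0.15 ± 0.18 on the log2 scale. The Mki67 difference was 0.0078 without DSS control 3, 0.065 without DSS knockout 4 and 0.34 without DSS control 2. Top2a differed by 0.16 ± 0.22, Cdk1 by 0.12 ± 0.17, Aurkb by 0.14 ± 0.18, Bub1 by 0.14 ± 0.31 and Kif11 by 0.13 ± 0.25. Ccnb1 differed by 0.01 ± 0.21, Cenpa by 0.02 ± 0.16 and Ube2c by 0.05 ± 0.14. In each of these the groups overlapped, and the exact permutation p was 0.457 or more. By role, the median differences ran from 0.06 in the centromere and kinetochore group to 0.42 for the 2 cytokinesis genes, and no role group held a called gene. S phase genes had a median of 0.21 with 47 of 53 positive, and other mitosis genes 0.12 with 64 of 90, likewise with none called.

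**Figure D5:**
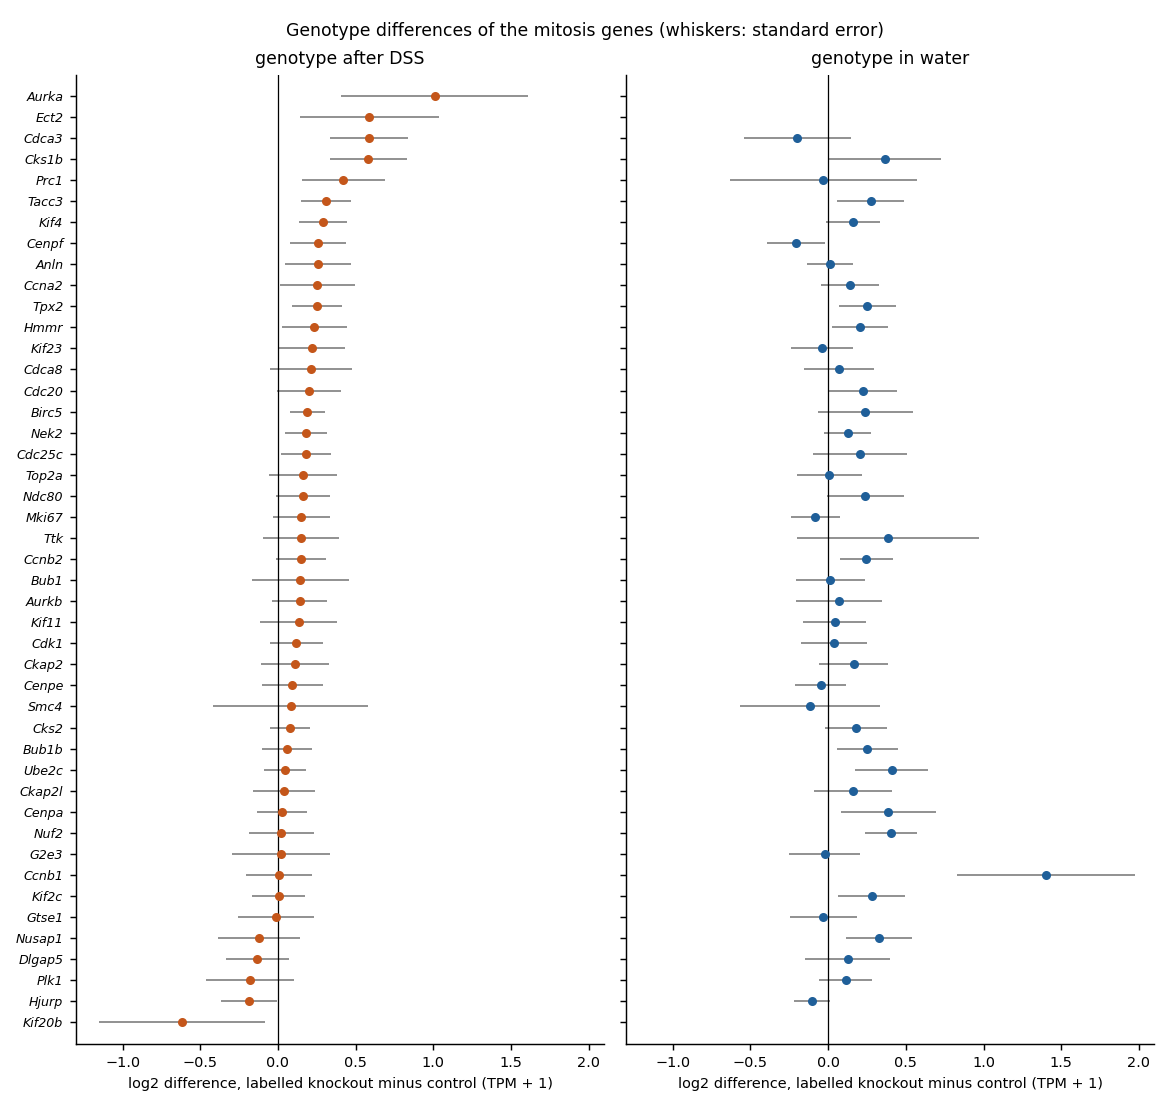
Log2 difference, labelled knockout minus control, with limma's standard error (horizontal axes, log2(TPM + 1)), for the mitosis genes after DSS (left) and in water (right), ordered by the difference after DSS. Most points lie to the right of 0 in both panels, within about 1 or a few standard errors, and none was called. Kif20b, Aurka and Ect2 were not tested in water.

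In water, 42 of the 45 averaged 1 TPM or more and were tested, and none of them was called, where 1 of 11046 genes was (0.00905%). At unadjusted p under 0.05 there were 2 of 42, against 5.28% of all genes. The median difference was 0.15 against 0.001 for all genes, with 32 of 42 positive. Without water control 3, the library lowest in these genes, the median was 0.01 with 23 of 43 positive, and without water knockout 3, the highest, it was 0.06 with 24 of 42, so the value rested largely on these 2 mice. Within cage a it was 0.27 and within cage b 0.05.

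The 2 genes were Ccnb1 and Nuf2, a subunit of the NDC80 complex that holds microtubules at the kinetochore. Ccnb1 was at 8.37, 6.37, 2.36 and 0 TPM as deposited in the water controls and 7.67, 8.36, 11.9, 9.71 and 9.42 in those labelled knockout, 1.40 ± 0.57 on the log2 scale and limma adjusted p = 0.865. Nuf2 was at 6.41, 6.64, 5.27 and 5.57 TPM in the controls and 9.56, 7.26, 9.29, 9.86 and 5.72 in those labelled knockout, 0.40 ± 0.17 and limma adjusted p = 0.865. The Ccnb1 difference was 0.75 without water control 4, where it is listed at 0, and 2.30 with a pseudocount of 0.1. Both genes overlapped between the genotypes, at 1 control for Ccnb1 and 1 mouse labelled knockout for Nuf2. The exact two-sided permutation p, which cannot fall under 0.00794 here, was 0.0238 for Ccnb1 and 0.0635 for Nuf2.

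Ube2c had a positive difference of 0.41 ± 0.23, between those of Ccnb1 and Nuf2, and the most negative differences in water were those of Cenpf (-0.21 ± 0.19), Cdca3 (-0.20 ± 0.35) and Smc4 (-0.12 ± 0.45). Mki67 differed by -0.08 ± 0.16, Top2a by 0.01 ± 0.21, Cdk1 by 0.04 ± 0.21, Bub1 by 0.01 ± 0.22, Kif11 by 0.04 ± 0.20, Aurkb by 0.07 ± 0.28, Plk1 by 0.11 ± 0.17 and Cenpa by 0.39 ± 0.30. Several genes thus had estimates of opposite sign in the 2 tables, as for Cenpf (0.26 ± 0.18 after DSS) and Cdca3. Whether the genotype difference itself depended on treatment was not tested, and treatment and cage cannot be told apart. Plasma cell markers had a median difference of 0.96 in water, with 8 of 9 positive, and 0.58 after DSS, with 5 of 5 positive, and none was called.

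The cages of the water mice were compared with genotype as a covariate. None of 42 members was called between cage b, the females, and cage a, the males, where 4 of 11046 genes were (0.0362%). At unadjusted p under 0.05 there were 3 of 42, against 6.83% of all genes, all higher in cage b: Mki67 by 0.33 ± 0.12, Cenpe by 0.32 ± 0.13 and Ndc80, a kinetochore subunit, by 0.49 ± 0.20. The median was 0.13 against 0.002 for all genes, and -0.009 without water control 3, which is in cage a.

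The genes varied together between mice of a group. Over deviations from the 4 group means on log2(TPM + 1), the median Pearson r of a member with the mean of the other 44 was 0.66 over 16 mice, 0.69 over the 9 water mice and 0.63 over the 7 DSS mice, and 29 of the 45 exceeded 0.5. Tpx2 (0.86), Bub1b (0.84) and Kif11 (0.83) were highest, and Hjurp (-0.21), G2e3 (0.01) and Smc4 (0.11) lowest. The points share libraries and their scale, so these are descriptions with no test. Among 7243 other genes averaging 5 TPM or more, the 10 most like the members' mean over the 16 mice were Kif20a (0.93), Pbk (0.90), Asf1b (0.89), Mcm5 (0.88), Prim2 (0.86), Cog5 (0.86), Lmnb1 (0.85), Hmgn2 (0.85), Cct2 (0.85) and Kif15 (0.84). Of the 100 most like, 13 stood on the list of other mitosis genes and 10 on the S phase list.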

How the data were processed

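Libraries of polyadenylated RNA from EpCAM-sorted colon epithelium of 16 mice were stranded and read once over 75 bases, and depth per library is not given in the tables. The authors quantified reads with kallisto and sleuth (mm10 in the submitters' processing notes; transcript release not given in the sources used here) and deposited TPM per APPRIS principal transcript in a DSS and a water table. The deposited mean_obs column is the authors' mean natural log of estimated counts per transcript, and was used for depth only. Of the lines, 385 repeated a transcript and were dropped, leaving 28988 transcripts, which were summed over 22396 symbols.

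Genotype was tested within a table with limma 3.58.1 (R 4.3.3; trend, moderated variances) on log2(TPM + 1) for genes averaging 1 TPM or more in that table, with Benjamini-Hochberg adjustment over all genes tested and a threshold of 0.05. Fold changes of low genes are understated on this scale. Exact two-sided permutation tests of the difference in mean TPM are given for single genes. No test was run between tables. Cage was a covariate in an alternative. Scripts were tested on simulated data. Members and lists were chosen with earlier results of these data known. Values per mouse are given for 10 genes covering the roles, the 3 largest and 3 smallest differences of each comparison, the 3 highest and lowest mean levels and genes listed at 0. Gene positions are those of mm10.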

Additional observations from a re-analysis of the deposited data

Results flagged for a closer look

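Within groups of 4 or 5 mice, 138 series of TPM values were searched for a mouse far from the others by Dixon's ratio, and 12 stood out, where chance gives about 1 in 20, or 6.9. Water control 3, the mouse lowest in the mitosis genes, was low in Plk1 (20.3 TPM, others 24.5 to 24.6) and Cenpa (3.09 TPM, others 7.32 to 8.14). Water knockout 3, the highest of the water mice, was high in Aurkb (17.6 TPM, others 7.28 to 9.78). DSS knockout 2 was low in Ccnb2 (43.02 TPM, others 50.3 to 51.3) and Kif23 (10.06 TPM, others 15.6 to 15.9). DSS knockout 4 was high in Anln (11.3 TPM, others 7.87 to 8.24), water control 2 in Dlgap5 (6.15 TPM, others 3.32 to 3.78) and water knockout 1 in Hjurp (33.4 TPM, others 24.3 to 26.2). The other flags concern transcripts with no windows of their own. Aurka was at 1.37 TPM in water control 1 and listed at 0 in the other controls, and Ect2 was at 0.596 TPM in water knockout 5 and listed at 0 in the others labelled knockout. Ect2 was also high in DSS knockout 3 (3.51 TPM, others 0.749 to 0.934), and Ttk was listed at 0 in water knockout 4 (others 3.11 to 4.08 TPM).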

How the results depend on the processing

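Across the tables the count of genes without overlap depended on the scale. In controls the 19 by rank became 9 after a single rescaling and 2 relative to epithelial markers, where 5.71% of all genes were higher. In mice labelled knockout the 17 became 26 by TPM as deposited, where 31.4% of all genes were higher. The median differences were 0.74 and 0.81 by TPM as deposited, where all genes were shifted by 0.32 and 0.31. With libraries scaled to the same sum they were 0.63 in controls and 1.01 in mice labelled knockout, where all genes were shifted by 0.19 and 0.48. Leaving out each mouse in turn gave 19 to 26 genes and medians of 0.30 to 0.55 in controls, and 17 to 24 genes and 0.37 to 0.53 in mice labelled knockout. The share of all genes moved too, from 20.96% to 32.7% in controls (32.7% beside the 26) and from 26.6% to 27.9% in mice labelled knockout. For genotype and cage, 0 members were called under every alternative run, mice left out included. The median genotype difference ran from 0.059 to 0.28 after DSS and from 0.013 to 0.22 in water with mice left out.

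Replicate numbers did not pair the mice: correlations of deviations were -0.20, -0.03 and -0.16 after DSS and 0.03, -0.08, 0.09 and 0.09 in water. With the replicate block 0 members were called and the medians were 0.076 after DSS and 0.18 in water. It reversed the sign of Ccnb1 (-0.070) and Cenpa (-0.025) after DSS and of Bub1 (-0.0016) in water.

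Other uncalled differences near 0 changed sign too, and the cause was not tested. After DSS, array weights gave -0.12 for Bub1, -0.11 for Ccnb1, -0.029 for Kif11 and 0.083 for Plk1. Ccnb1 was -0.0042 under quantile normalization and -0.019 with cage. In water, array weights gave -0.0028 for Bub1, -0.0061 for Kif11 and -0.040 for Top2a. With cage Bub1 was -0.025 and Top2a -0.023, and quantile normalization gave -1.16e-05 for Cdk1 and -0.034 for Top2a. With mice left out, ranges after DSS were -0.24 to 0.42 for Bub1, -0.19 to 0.20 for Ccnb1, -0.046 to 0.12 for Cenpa, -0.13 to 0.33 for Kif11, -0.47 to 0.17 for Plk1, -0.051 to 0.33 for Top2a and -0.079 to 0.15 for Ube2c. Without a change of sign they were 0.0078 to 0.34 for Mki67, 0.013 to 0.25 for Cdk1 and 0.028 to 0.22 for Aurkb. In water they were -0.13 to 0.22 for Aurkb, -0.12 to 0.15 for Bub1, -0.079 to 0.18 for Cdk1, -0.14 to 0.15 for Kif11, -0.18 to 0.053 for Mki67 and -0.20 to 0.13 for Top2a. The length adjustment and the restriction to 33 members with 10% or more of their own windows were added after the data were seen.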
